A study of Mus musculus with 2 samples.

Results

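Myeloperoxidase, the neutrophil serine proteases and the genes that accompany them were followed cell by cell in the spleens of mice with chronic anaemia. The 7 genes are Mpo, Elane, Prtn3, Ctsg, Ms4a3, Cebpe and Fcnb. They were chosen by symbol and are 7 of the 32285 genes listed in the deposited matrices, and all 7 had UMIs in both libraries. A UMI (unique molecular identifier) marks 1 captured RNA molecule, so the values are counts of molecules and not of reads.

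C57BL/6 mice received phenylhydrazine (PHZ, an oxidant that destroys red cells) or were bled, in each case every 3 days for 1 month. Live spleen cells of each treatment gave 1 library with the 10x Genomics Chromium 3′ chemistry, version 3.1. No untreated spleen was analysed here, and the labels give no age, sex or number of mice per library. With 1 library per treatment there is no replicate and no test between treatments, and every interval below is a 95% interval for counting error alone.

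Neutrophils fill their granules in the order in which they mature. Promyelocytes make the primary (azurophil) granule proteins first, then myelocytes make the secondary granule proteins, and both programmes are off in the segmented neutrophil that circulates. Mpo encodes the peroxidase that makes hypochlorous acid. Elane, Prtn3 and Ctsg encode neutrophil elastase, proteinase 3 and cathepsin G, which are serine proteases stored active in the granule. Ms4a3 encodes a membrane protein of granulocyte and monocyte progenitors. Cebpe encodes the transcription factor C/EBP epsilon, which is needed for secondary granules, and Fcnb encodes ficolin B, a lectin of immature myeloid cells. In the mouse the spleen makes blood cells under anaemic stress, so all of these stages can occur there.

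The genes lie on 5 chromosomes of GRCm38 (mm10), and GENCODE M21 annotates each as protein-coding. Elane (chromosome 10, 79886247 to 79888215, plus strand, 5 exons) starts 3072 bases after the end of Prtn3 (79874476 to 79883174, plus strand, 5 exons). Ctsg (56099881 to 56102574, minus strand, 5 exons) and Cebpe (54710360 to 54712174, minus strand, 2 exons) are both on chromosome 14. Mpo is on chromosome 11 (87793581 to 87804413, plus strand, 14 exons), Ms4a3 on chromosome 19 (11629496 to 11640851, minus strand, 7 exons) and Fcnb on chromosome 2 (28076378 to 28084885, minus strand, 9 exons). The antisense transcript Gm11505 lies inside Mpo with 5361 bases of overlap, and Plppr3 overlaps Prtn3 by 159 bases on the other strand. The strand setting of the counting is not given in the sources used here, so reads from these overlaps could not be assigned with certainty.

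RefSeq promoter sequences (GRCm38.p6, 250 bases before to 50 after the start) were matched for 6 of the 7 genes. They are shown because genes that share a cell can be compared in their start regions. The letters AGGAAGT, the core that ETS factors such as PU.1 bind, occurred on the gene's own strand in 5 of the 6. Each line below gives the bases around this match on the gene's strand, with the match in capitals and any base annotated as exon left out.
Mpo: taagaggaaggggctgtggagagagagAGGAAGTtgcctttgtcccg
Elane: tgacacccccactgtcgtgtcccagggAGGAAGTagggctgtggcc
Prtn3: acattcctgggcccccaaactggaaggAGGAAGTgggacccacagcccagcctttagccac
Ctsg: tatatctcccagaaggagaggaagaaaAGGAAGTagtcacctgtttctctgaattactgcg
Fcnb: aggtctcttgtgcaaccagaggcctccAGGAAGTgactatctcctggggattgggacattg

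These stretches are chr11:87793534-87793580 (plus strand) for Mpo, chr10:79886201-79886246 (plus) for Elane, chr10:79879546-79879606 (plus) for Prtn3, chr14:56102747-56102807 (minus) for Ctsg and chr2:28084948-28085008 (minus) for Fcnb. The match began 84 bases before the RefSeq start in Elane, 94 in Prtn3, 103 in Fcnb, 206 in Ctsg and 223 in Mpo. Searched on both strands, AGGAAGT was present in 9.35% of 32851 mouse promoters of the same length. The MYB core AACGG was found in Elane and Prtn3, 50 and 55 bases before the start, and in 17.4% of all promoters. The RUNX core TGTGGT was found in Ctsg (16.8% of all promoters), and the C/EBP sequence TTGCNNAA in Ms4a3 and Fcnb (10.8%). The motifs were picked with the member sequences in view, and a match is a description of the letters and not a binding site.

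After filtering, PHZ spleen gave 6113 cells with a median of 12242 UMIs, and bleeding spleen gave 8953 cells with a median of 8045. Clusters were named from marker lists without the 7 genes, which were also kept out of the clustering. The doublet scores, which decided the barcodes that entered the clustering, were computed without leaving these genes out. Neutrophil-like cells numbered 295 in PHZ spleen and 113 in bleeding spleen, which are 4.83% (4.30 to 5.39) and 1.26% (1.04 to 1.52) of cells. Proliferating precursor-like cells numbered 47 and 14, immature cells 93 and 32, and mature cells 141 and 62. The other 14 and 5 neutrophil-like cells were led by erythroid genes and were left without a stage. Precursor-like cells made up 15.9% (11.9 to 20.6) of neutrophil-like cells in PHZ and 12.4% (6.94 to 19.9) in bleeding, and these intervals overlap widely. Of 19 neutrophil markers, 18 were 2-fold higher in the cluster that holds the Camp-led cells and 16 in the cluster led by Retnlg. Precursor-like cells had a UMI of 19 of these markers in PHZ and of 18 in bleeding, where Mmp8 was at 0. The libraries shared 15 cell barcodes.

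Removal of doublets decided a large part of the bleeding values. The PHZ matrix held 29405 UMIs of the 7 genes over all barcodes and the bleeding matrix 9914. Neutrophil-like cells held 89.3% (89.0 to 89.7) of these UMIs in PHZ and 38.0% (37.1 to 39.0) in bleeding. Barcodes that passed every filter and were then removed as doublets held 6.50% in PHZ and 56.6% in bleeding. In bleeding, 5558 of the 5614 UMIs removed this way came from 11 barcodes with 20 or more UMIs of the genes, and in PHZ 1793 of 1912 came from 10. Of those barcodes, 10 of 10 in PHZ and 9 of 11 in bleeding held 0 T cell marker UMIs. The most in a bleeding barcode was 102, in one with 31 UMIs of the 7 genes. B cell marker UMIs ran from 0 to 313 in the PHZ barcodes and from 0 to 7 in the bleeding ones. Haemoglobin took under 5% of UMIs in 6 of the 10 PHZ barcodes and in 9 of the 11 bleeding barcodes. Whether they were single cells was not tested, and values with doublets kept are therefore given beside the main ones.

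**Figure D1:**
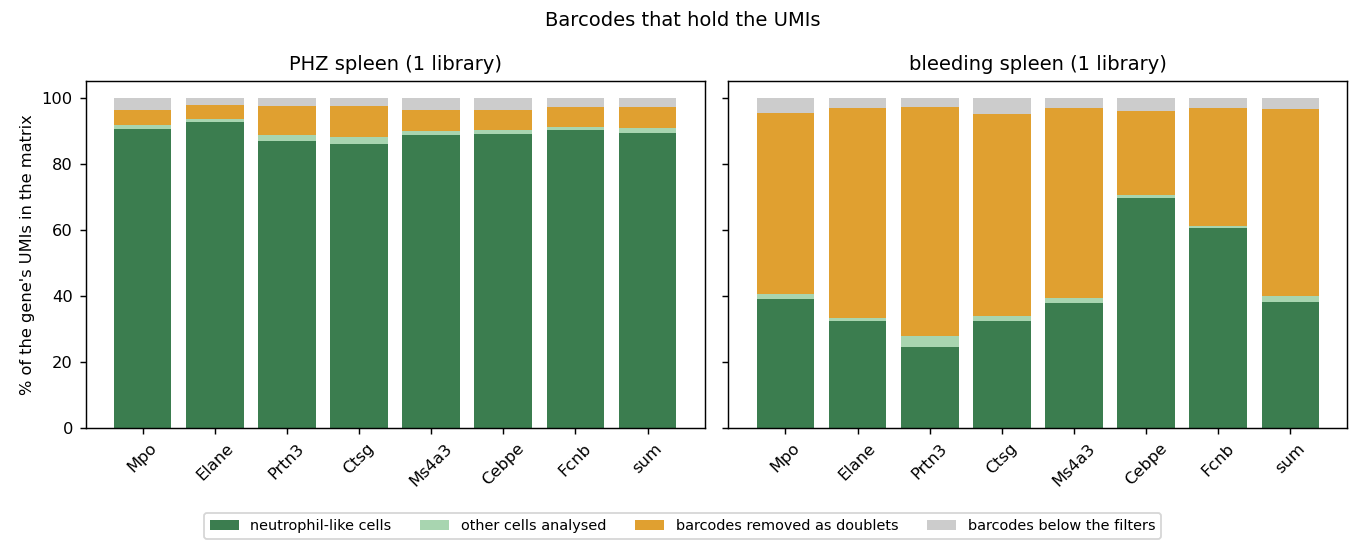
Share of each gene's UMIs (% of the UMIs in the whole matrix, vertical axis) held by neutrophil-like cells, other cells, barcodes removed as doublets and barcodes below the filters, for the PHZ library (left) and the bleeding library (right). In PHZ the neutrophil-like share of the sum is 89.3%, and in bleeding it is 38.0%, with 56.6% in removed barcodes.

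Before any division by stage, the UMIs were concentrated in very few cells. In PHZ, 22 cells with 100 or more UMIs of the 7 genes held 24084 of the 26659 UMIs found in cells, and all 22 were precursor-like. In bleeding, 5 such cells held 2866 of 3945, and all 5 were precursor-like. With doublets kept, 28 PHZ cells and 13 bleeding cells had 100 or more. Of these, 22 PHZ and 9 bleeding cells were precursor-like, and 5 PHZ and 2 bleeding cells were monocyte-like. Another 2 bleeding cells were then early erythroid or progenitor-like. A further 42 PHZ cells and 15 bleeding cells had 20 to 99 UMIs, and 5666 PHZ cells and 8794 bleeding cells had none. A sum over a cell group in the bleeding library thus rests on a handful of cells.

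Mpo was the peroxidase transcript of the earliest cells and was close to absent after the precursor stage. Precursor-like cells held 3445 Mpo UMIs in PHZ, in 16 of 47 cells, and 626 in bleeding, in 3 of 14 cells. The highest cell had 642 UMIs in PHZ, and in bleeding 1 cell had 463, which is 74.0% of the bleeding total. Immature cells held 0 Mpo UMIs in 93 PHZ cells and 1 in 32 bleeding cells, and mature cells 1 in 141 PHZ cells and 0 in 62 bleeding cells.

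The serine proteases Elane, Prtn3 and Ctsg followed Mpo, with Prtn3 in the most cells. Elane had 7057 UMIs in 22 of the 47 PHZ precursor-like cells and 665 in 5 of the 14 bleeding ones. Prtn3 had 7637 UMIs in 36 PHZ cells and 655 in 8 bleeding cells. Ctsg had 2242 UMIs in 19 PHZ cells and 328 in 2 bleeding cells, of which 1 cell held 287.

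Elane and Prtn3, which neighbour each other on chromosome 10, were found together in 22 PHZ and 4 bleeding precursor-like cells. Prtn3 was found without Elane in 14 PHZ and 4 bleeding cells, and Elane without Prtn3 in 0 PHZ cells and 1 bleeding cell. Prtn3 in immature cells was down to 7 UMIs in 7 PHZ cells and 3 in 1 bleeding cell. Elane had 3 UMIs in immature PHZ cells and 0 in bleeding ones, and Ctsg had 0 in both. A 0 allows up to 2.28 CPM of Ctsg in immature PHZ cells and 6.16 CPM in bleeding ones, where CPM is UMIs per 1000000 of the group's UMIs outside haemoglobin.

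Ms4a3 reached further than the proteases. It had 1690 UMIs in 42 of 47 PHZ precursor-like cells and 191 in 13 of 14 bleeding ones. Immature cells held 39 UMIs in 18 PHZ cells and 17 in 7 bleeding cells, and mature cells held 0 in both libraries. Its level per cell in precursor-like cells ran from 0 through a median of 2.79 to 28.8 UMIs per 10000 in PHZ, and from 0 through 1.40 to 17.97 in bleeding.

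Cebpe was the most evenly spread of the 7 genes. All 47 PHZ precursor-like cells held it, with 1250 UMIs and 58 in the highest cell, as did 13 of 14 bleeding cells with 274 UMIs and 41 in the highest. In those cells it ran from 2.06 through a median of 7.04 to 12.98 UMIs per 10000 in PHZ, and from 0 through 7.17 to 13.7 in bleeding, so the ranges overlap almost fully. Immature cells held 640 UMIs in 87 of 93 PHZ cells and 245 in 31 of 32 bleeding cells. Mature cells held 14 UMIs in 13 of 141 PHZ cells and 14 in 10 of 62 bleeding cells, and among the 7 genes no other had more than 4 UMIs there.

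Fcnb, a soluble lectin gene, lay between Ms4a3 and Cebpe in its reach. It had 1858 UMIs in 46 PHZ precursor-like cells and 548 in 12 bleeding ones. Its median level there was 8.37 UMIs per 10000 in PHZ and 12.9 in bleeding, with highest cells at 38.7 and 40.7. Immature cells held 358 UMIs in 41 of 93 PHZ cells and 182 in 13 of 32 bleeding cells.

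Immature cells split into a sub-cluster with Ly6g and Ifitm6 among its 10 leading genes (called Ly6g here, and led by Fmnl2) and another led by Mmp8 with Mmp9, the collagenase and gelatinase of later granules. All 358 PHZ and all 182 bleeding Fcnb UMIs of immature cells were in the Ly6g sub-cluster (59 and 22 cells), and none in the Mmp8 sub-cluster (34 and 10 cells). Ms4a3 was divided the same way, 39 against 0 in PHZ and 17 against 0 in bleeding. Cebpe stayed in both, at 568 CPM in PHZ and 589 in bleeding in the Ly6g sub-cluster, and at 316 and 255 CPM in the Mmp8 sub-cluster.

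**Figure D2:**
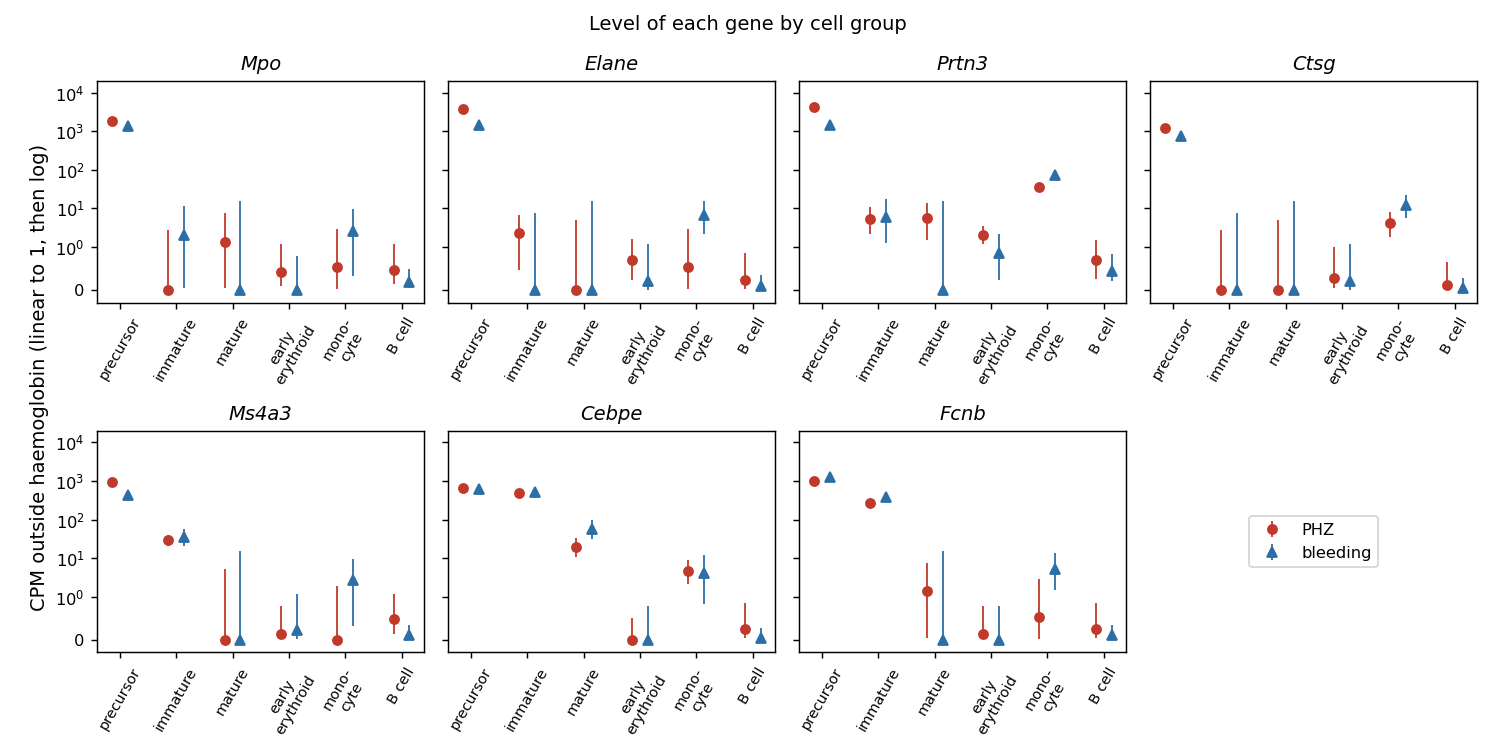
Level of each gene (CPM, linear up to 1 and then logarithmic, vertical axis) in neutrophil stages, early erythroid or progenitor-like, monocyte-like and B cell-like cells, for PHZ (red circles, left of each pair) and bleeding (blue triangles); bars are 95% Poisson intervals for counting error. Mpo, Elane, Prtn3 and Ctsg leave the neutrophil stages after the precursors, Ms4a3 and Fcnb after the immature cells, and Cebpe is still at 19.4 CPM in mature PHZ cells and at 57.5 CPM in mature bleeding cells.

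Within the PHZ precursor-like cells Mpo, Elane, Prtn3 and Ctsg were high where secondary granule genes were low, and Cebpe was present throughout. Cells were placed by the share of their UMIs outside haemoglobin that came from the secondary granule genes Camp, Ngp, Ltf, Lcn2 and Cd177, with bounds of 1% and 5% that were chosen after the data were seen. In PHZ, 7 cells lay under 1%, 3 lay from 1 to 5% and 37 lay above 5%. In bleeding the numbers were 2, 1 and 11.

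Mpo and Ctsg were lower already in the middle cells in PHZ. Mpo was at 5716, 3488 and 82.1 CPM in the low, middle and high cells, and Ctsg at 4053, 1269 and 39.0 CPM. With doublets removed, Elane held its level into the 3 middle cells, at 9958, 9752 and 569 CPM. Prtn3 was nearly level, at 10887, 9705 and 674 CPM. With doublets kept, 6 low and 4 middle cells were at 10463 and 7228 CPM of Elane and at 11138 and 7470 of Prtn3. Mpo was then at 5746 and 2572 CPM and Ctsg at 4134 and 908.

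The remaining genes were kept longer or were highest later. Ms4a3 was at 2184, 1527 and 318 CPM, so the drop to the high cells was smaller than that of the proteases. Fcnb peaked in the middle cells at 749, 1765 and 1018 CPM. Cebpe was at 428, 557 and 793 CPM and was the sole member with its highest value in the high cells. In single cells Mpo ran from 51.6 through a median of 55.0 to 67.1 UMIs per 10000 in the 7 low cells. In the 37 high cells Mpo ran from 0 through 0 to 12.7, so its ranges do not overlap. Cebpe ran from 2.06 to 7.19 in the low cells and from 3.69 to 12.98 in the high cells, so these overlap. These cells all come from the PHZ library and are not replicates, and the bounds were chosen after the data were seen. The share of all genes whose ranges are separate at these bounds was not tested, so the separation describes these cells only.

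In bleeding the high cells were also low in the proteases, but the other bins rest on 1 cell each. The middle cell alone had 58.7 Mpo, 158 Elane, 98.3 Prtn3 and 40.7 Fcnb UMIs per 10000. The 11 high cells were at 9.60 CPM of Mpo, 138 of Elane, 106 of Prtn3, 176 of Ms4a3, 841 of Cebpe and 1398 of Fcnb, and Ctsg had no UMI there. Of the 2 low cells, 1 held all 463 Mpo, 191 Elane, 354 Prtn3 and 287 Ctsg UMIs with 2 Cebpe and 0 Fcnb UMIs. The other had 2 Ms4a3 UMIs and none of the other members. Neither cell had a Camp, Ngp or Ltf UMI. The first had 4 S100a8, 16 Kit and 22 Cd34 UMIs, and the other had 0, 5 and 1. Whether these low cells were neutrophil precursors or other progenitors was not tested. With doublets kept, bleeding precursor-like cells numbered 19, of which 0 were low, 2 middle and 17 high, since the low Mpo cell then clustered with the early progenitor-like cells.

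With doublets kept, the 2 bleeding middle cells had 49.7 and 58.7 Mpo and 98.3 and 125 Prtn3 UMIs per 10000. The 17 high cells were at 95.7 CPM of Mpo, 867 of Elane, 775 of Prtn3, 21.5 of Ctsg, 365 of Ms4a3, 756 of Cebpe and 1527 of Fcnb. In PHZ the 39 high cells were then at 77.5 CPM of Mpo and 784 of Cebpe.

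**Figure D3:**
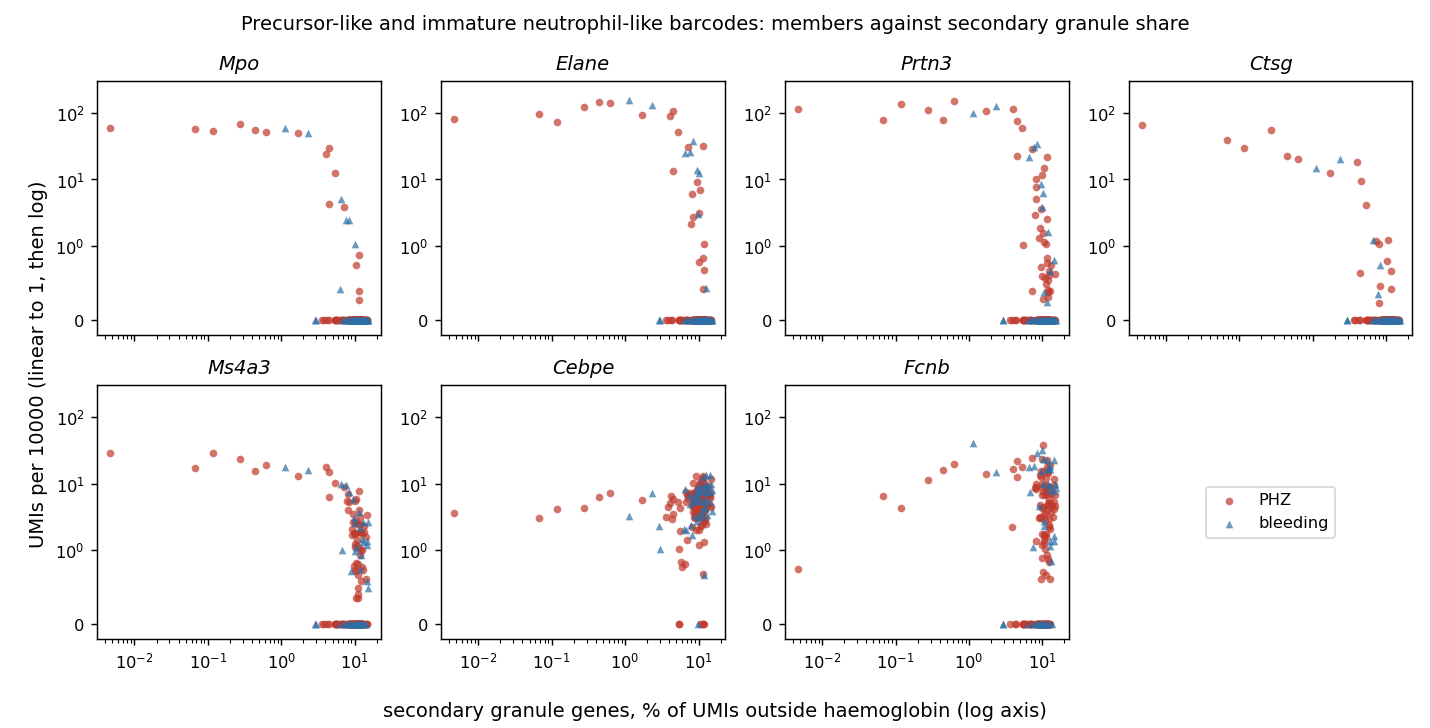
Each gene in single precursor-like and immature neutrophil-like barcodes with doublets kept, as UMIs per 10000 UMIs outside haemoglobin (vertical, linear up to 1 and then logarithmic), against the share of secondary granule UMIs in the same barcode (horizontal, % on a log axis), for PHZ (red circles) and bleeding (blue triangles). Mpo is at 0 in 31 of the 47 PHZ precursor-like cells that pass the doublet step, all of them above 5%, while Cebpe is present in all 47.

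Between treatments, precursor-like cells had a higher summed CPM of the 7 genes in PHZ, by a factor that depended on the gene and on a few cells. The sum was 13622 CPM in PHZ and 7389 CPM in bleeding, a ratio of 1.84 (1.78 to 1.91), or 1.48 (1.44 to 1.53) with doublets kept. By the rule that a gene is past the fold at 2-fold or more, 3 of the 7 genes were higher in PHZ and 0 lower. Over all 7620 genes with at least 20 UMIs in these cells, 9.70% were past 2-fold in either direction, 4.23% higher in PHZ and 5.47% lower, and the median log2 ratio was -0.05.

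The highest ratios were those of Prtn3, Elane and Ms4a3. Prtn3 was at 4132 CPM in PHZ and 1472 CPM in bleeding, a ratio of 2.81 (2.59 to 3.04). Elane was at 3818 and 1495 CPM, a ratio of 2.55 (2.36 to 2.77), and Ms4a3 at 914 and 429 CPM, a ratio of 2.13 (1.83 to 2.49). Mpo and Ctsg were nearer, with ratios of 1.32 (1.22 to 1.44) and 1.65 (1.46 to 1.85). In bleeding 1 cell held 463 of the 626 Mpo and 287 of the 328 Ctsg UMIs behind these ratios. Of the later genes, Cebpe was close to even at 676 and 616 CPM, a ratio of 1.10 (0.963 to 1.26). Fcnb was lower in PHZ, at 1005 and 1232 CPM, a ratio of 0.816 (0.741 to 0.899).

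Which genes passed 2-fold changed with the doublet step. With doublets kept, Mpo (2.22, 2.01 to 2.46) and Ctsg (4.37, 3.68 to 5.22) were past 2-fold, and Elane (1.41, 1.34 to 1.497), Prtn3 (1.80, 1.70 to 1.92) and Ms4a3 (1.65, 1.46 to 1.87) were not. The bleeding cell with 463 Mpo UMIs, which passes the doublet step, was in that setting grouped with the early progenitor-like cells. Bleeding precursor-like UMIs went from 626 to 430 for Mpo and from 328 to 142 for Ctsg. Cebpe was then at 0.925 (0.829 to 1.03) and Fcnb at 0.616 (0.570 to 0.666). Over all genes 9.93% were past 2-fold in that setting, which is 7.27% higher in PHZ and 2.66% lower. Without the 3 highest cells of each gene in each library, the log2 ratio of the sum was 2.13 in place of 0.88, and that of Fcnb turned from -0.29 to 0.29. This takes 3 of 47 cells from PHZ but 3 of 14 from bleeding, so it is not an even cut of the 2 libraries. Cells with under 1% of secondary granule UMIs were 7 of 47 in PHZ and 2 of 14 in bleeding, and the part of this in the ratios was not tested.

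Markers of several other cell types were at a higher CPM in the bleeding precursor-like group. T cell markers summed to 14 UMIs (7.57 CPM, 6 of 12 genes) in PHZ and 64 UMIs (144 CPM, 10 of 12) in bleeding. B cell markers were at 44.4 CPM in PHZ and 96.7 in bleeding, and basophil or mast cell markers at 9.74 and 38.2 CPM with Prss34 and Cpa3 at 0 in both. Early erythroid or progenitor markers were at 611 CPM in PHZ and 1194 in bleeding, and erythroid markers were at 497 and 508 CPM. Monocyte markers were at 3117 CPM in PHZ and 2891 in bleeding, with Ace and Cd300e at 0 in both. NK cell markers were at 408 and 189 CPM, nearly all of it Nkg7, with Ncr1 and Eomes at 0 in both. Their part in the ratios was not tested. In immature cells the sum of the 7 genes was at 797 CPM in PHZ and 920 CPM in bleeding, a ratio of 0.866 (0.775 to 0.970). Fcnb there had 272 and 374 CPM, a ratio of 0.729 (0.608 to 0.876), and Cebpe 487 and 503 CPM, a ratio of 0.968 (0.834 to 1.13), and Ms4a3 was at 0.850 (0.470 to 1.60). Of these 3 genes with at least 20 UMIs none was past 2-fold, against 7.90% of 5774 genes, 3.78% higher in PHZ and 4.12% lower. Over all neutrophil-like cells, where stage shares also enter, Prtn3 (3.56), Elane (3.25), Ms4a3 (2.55) and Ctsg (2.09) were past 2-fold higher, against 7.84% of 9247 genes, 3.23% higher in PHZ and 4.61% lower. With doublets kept, Ctsg (5.40), Mpo (2.75, against 1.68 with doublets removed) and Prtn3 (2.23) were past 2-fold there, and Ms4a3 (1.99) and Elane (1.76) were not, against 8.49% of 9527 genes.

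**Figure D4:**
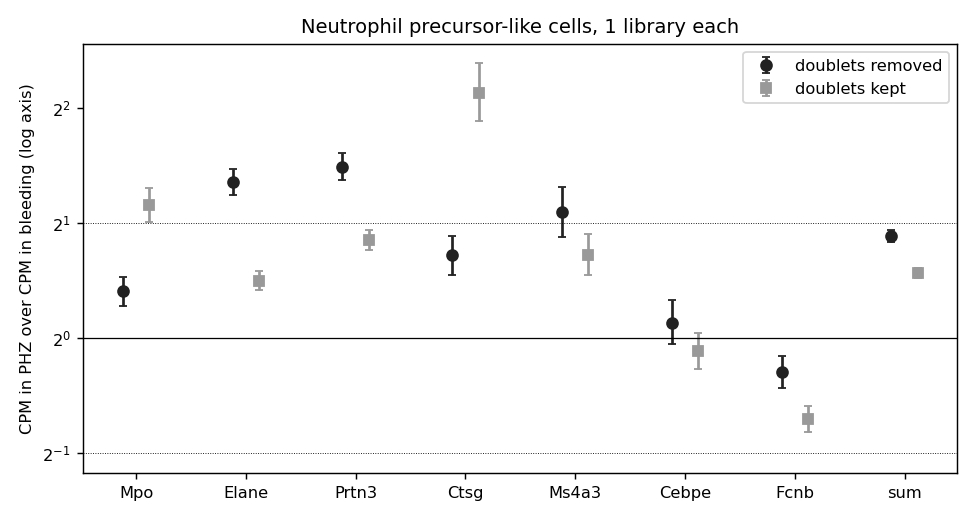
Ratio of CPM in PHZ to CPM in bleeding in neutrophil precursor-like cells (vertical, log axis) for each gene and the sum, with doublets removed (black circles) and kept (grey squares); bars are exact conditional 95% intervals for counting error and dotted lines mark 2-fold. Prtn3 stands at 2.81 with doublets removed and at 1.80 with doublets kept, and Ctsg at 1.65 and 4.37.

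Early erythroid or progenitor-like cells, which carry Car1 and blood progenitor genes, held almost none of the transcripts. The 96 PHZ cells had 27 UMIs of the 7 genes in 19 cells, at most 3 in a cell, and the 63 bleeding cells had 7 UMIs in 7 cells. Prtn3 gave 15 of the PHZ UMIs and 4 of the bleeding ones, and Cebpe had 0 in both. Their sum was at 3.77 CPM (2.48 to 5.48) in PHZ and 1.5004 CPM (0.603 to 3.09) in bleeding.

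B cells should lack these genes, and their CPM is set beside that of the early cells here. Their median depths were 5727 and 5565 UMIs outside haemoglobin, against 97564 and 78773 in the early cells. The 1377 PHZ B cell-like cells had 21 UMIs, 2.48 CPM (1.54 to 3.79), and the 3219 bleeding ones had 21 UMIs, 1.02 CPM (0.630 to 1.56). In CPM the levels in early erythroid or progenitor-like cells overlap those of B cell-like cells in each library. Per cell the UMIs were denser in the early cells, where 19 of 96 PHZ and 7 of 63 bleeding cells held one. Because depth differs so much, the overlap in CPM does not place the early cells at background, which was not tested.

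With doublets kept, single barcodes of the progenitor group stood out in bleeding. The group then had 2654 UMIs in 109 bleeding cells and 212 UMIs in 213 PHZ cells. In bleeding, 2 barcodes held 1382 and 1254 of them. The first had 463 Mpo, 191 Elane, 354 Prtn3, 287 Ctsg and 85 Ms4a3 UMIs, with 16 UMIs of the stem cell factor receptor Kit and 22 of the progenitor marker Cd34. The second had 356 Mpo, 27 Elane, 476 Prtn3, 324 Ctsg and 70 Ms4a3 UMIs, with 17 Kit and 22 Cd34 UMIs. Both had 0 Fcnb UMIs and at most 2 Cebpe UMIs, and neither had a Car1 or Alas2 UMI above 1. In PHZ the highest such barcode had 70 UMIs, 26 of them Cebpe and 24 Mpo.

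In monocyte-like cells most of the UMIs of the 7 genes were Prtn3. The 154 PHZ cells had 69 Prtn3 UMIs in 29 cells, 23 in the highest, and the 71 bleeding cells had 55 in 4 cells, of which 1 cell held 52. These are 36.2 CPM (28.2 to 45.9) in PHZ and 73.6 CPM (55.4 to 95.8) in bleeding. Against 6.16% of 8672 genes past 2-fold, 4.16% higher in PHZ and 1.99% lower, Prtn3 was past 2-fold lower in PHZ at 0.492 (0.340 to 0.715), which rests on the 1 bleeding cell. Ctsg had 8 UMIs in 5 PHZ cells and 9 UMIs in 1 bleeding cell, and Cebpe had 9 and 3. Mpo, Elane, Ms4a3 and Fcnb had at most 1 UMI each in PHZ and at most 5 in bleeding.

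The high monocyte-like cells carried genes of monocyte precursors. The bleeding cell with 52 Prtn3 UMIs had 20 UMIs of Irf8 (a transcription factor of monocyte commitment), 169 of Ly6c2, 100 of F13a1 and 33 of the proliferation gene Mki67. The PHZ cell with 23 Prtn3 UMIs had 12 Irf8, 72 Ly6c2, 133 F13a1 and 45 Mki67 UMIs. With 89 UMIs of the 7 genes in PHZ and 80 in bleeding, the summed ratio was 0.437 (0.319 to 0.598), and 1 bleeding cell held 90.0% of the bleeding sum.

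Without the doublet step the sum of this group went from 89 to 2746 UMIs in PHZ and from 80 to 1324 in bleeding. With doublets kept, monocyte-like cells had 2746 UMIs of the 7 genes in 179 PHZ cells and 1324 in 96 bleeding cells, a ratio of 1.07 (1.0005 to 1.14), and Prtn3 at 1.17 (1.05 to 1.30). The highest PHZ barcode held 1491 of them, with 320 Mpo, 360 Elane, 525 Prtn3, 201 Ctsg and 70 Ms4a3 UMIs beside 9 Irf8, 223 Ly6c2 and 32 F13a1 UMIs. It passed the doublet step, and with doublets removed it was counted among the precursor-like cells. The highest bleeding barcode held 799, with 248 Mpo, 151 Elane, 246 Prtn3 and 119 Ctsg UMIs beside 56 Irf8, 222 Ly6c2 and 92 F13a1 UMIs. Cebpe had 12 UMIs in the PHZ barcode and 0 in the bleeding one, and Camp and Ngp had 0 in both.

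Basophil or mast cell-like cells, which use other granule proteases, numbered 6 in PHZ and 9 in bleeding. In PHZ 1 cell held 26 Ctsg and 10 Ms4a3 UMIs with none of the other 5 genes, beside 423 UMIs of the basophil protease Prss34 and 34 of the mast cell carboxypeptidase Cpa3. In bleeding the group held 1 Ctsg UMI. The largest remaining sum was that of erythroid-like cells, with 173 UMIs in 3246 PHZ cells (9.61 CPM, 8.23 to 11.1, at most 2 UMIs in a cell) and 34 UMIs in 2358 bleeding cells (4.93 CPM, 3.41 to 6.89). T, NK, dendritic, plasma and red pulp macrophage-like cells held 0 to 22 UMIs each in either library.

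At equal depth the share of cells with any of the 7 genes still fell from stage to stage. In bleeding the precursor-like and immature shares rest on 14 and 32 cells. When cells were thinned to 1000 UMIs outside haemoglobin, which left out 1 mature bleeding cell of those compared here, any of the 7 genes was found in 83.0% of PHZ precursor-like cells and in 85.7% of bleeding ones. The share was 47.3% and 59.4% in immature cells, 2.84% and 1.64% in mature cells, and 0.363% and 0.155% in B cell-like cells. Before thinning these shares were 100% and 100%, 95.7% and 96.9%, 13.5% and 16.1%, and 1.45% and 0.652%.

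Other granule genes of the same cells were mostly within 2-fold. Of 18 genes for further granule proteins and their processing, 15 had at least 20 UMIs in precursor-like cells. Past 2-fold were 1 higher in PHZ and 0 lower, against 4.23% and 5.47% of all genes, with a median log2 ratio of 0.25 that was -0.06 with doublets kept. The exception was Nkg7, a granule membrane protein gene, at 407 CPM in PHZ and 187 CPM in bleeding (ratio 2.18, 1.74 to 2.77). With doublets kept it was at 1.37, and no gene of this list was past 2-fold. Srgn, the proteoglycan that packs granule proteases, had a ratio of 1.996 (1.74 to 2.31), just inside the bound. Cd63, a granule membrane gene, was at 1.67 (1.42 to 1.97), or 1.10 (0.976 to 1.24) with doublets kept. Serpinb1a, an inhibitor of the neutrophil proteases, was at 1.38 (1.23 to 1.54), or 1.09 (0.992 to 1.19) with doublets kept, and the lysozyme gene Lyz2 at 0.765 (0.735 to 0.795). Nkg7, Cd63 and Serpinb1a were also among the markers that named the stage.

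Transcription factor and receptor genes of granulocyte commitment showed 0 higher and 3 lower in PHZ among 13 of 16 with enough UMIs, against 4.23% and 5.47% of all genes, with a median log2 ratio of -0.07. The 3 were Cd34 (1 UMI in PHZ and 23 in bleeding), Irf8 (10 and 13) and Cebpa (19 and 15). In bleeding 1 cell, the one with 463 Mpo UMIs, held 22 of the Cd34 and all 13 Irf8 UMIs, and in PHZ 1 cell held 9 of the Irf8 UMIs. With doublets kept, Cd34 had 0 UMIs in both, Cebpa was at 0.640 (0.276 to 1.61) and Irf8 at 5.26 (1.70 to 26.3). Of the 52 PHZ Irf8 UMIs behind this, 51 were in 1 barcode that the doublet step removes and that held 313 B cell marker UMIs. The better measured factors were near even: Spi1 (PU.1) at 0.964 (0.808 to 1.16), Runx1 at 0.826 (0.696 to 0.983), Cebpd at 1.14 (0.913 to 1.45) and Myb at 0.875 (0.678 to 1.14). With doublets kept Myb, a progenitor factor, was at 1.64 (1.19 to 2.31).

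Secondary and tertiary granule genes had 0 past 2-fold in either direction among 13 of 15, against 4.23% higher and 5.47% lower of all genes. Their median log2 ratio was -0.06, or -0.26 with doublets kept. Camp, which encodes the antimicrobial peptide cathelicidin, was at 1.09 (1.07 to 1.11), but at 0.841 (0.829 to 0.853) with doublets kept. Ngp was at 0.714 (0.700 to 0.728), the lipocalin gene Lcn2 at 0.814 (0.789 to 0.840) and the chitinase-like gene Chil3 at 1.05 (1.01 to 1.09).

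The genes most like the sum of the 7 across 25 combinations of cell group and library were Chil3, Rhou, Msantd3, Olr1, Lbp, Cd177, Gm38575, Gpr84, C3 and Lcn2. Their Pearson correlations of log2(CPM + 1) ran from 0.93 for Chil3 to 0.87 for Lcn2. The members themselves ran from 0.94 for Cebpe to 0.67 for Elane. Bleeding precursor-like cells are not among the points, since their 14 cells are under the minimum of 20. The points share libraries and depth, and with doublets kept 5 other genes entered the list.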

How the data were processed

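Single-cell RNA counts of 1 PHZ and 1 bleeding spleen library were analysed. The values deposited by the authors are raw UMI counts, listed for every gene and every barcode, empty droplets included. Cell Ranger 7.0.0 and build mm10 are named in the submitters' processing notes, while the matrix headers name version 4. The handling of intronic reads is not given in the sources used here.

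Barcodes below 1000 UMIs, below 300 genes or above 10% mitochondrial UMIs were dropped. Scrublet (scanpy 1.11.5, expected rate 0.06) scored doublets per library, and the highest 0.8% per 1000 cells were removed, 332 in PHZ and 754 in bleeding. Both libraries were clustered together without the 7 genes (2000 variable genes, 30 principal components, 15 neighbours, leidenalg 0.10.2, resolution 1). A cluster took the name whose markers were most often 2-fold higher, with at least 3 such markers, unless its 10 leading genes favoured another; this naming rule, unlike the marker lists, was set after the data were seen. Neutrophil-like cells were clustered again for stages.

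CPM used the group total without haemoglobin genes. Shares have Clopper-Pearson, CPM Poisson and ratios exact conditional 95% intervals. UMIs of 1 library are not replicates, so these intervals cover counting error only, and a 0 is given the limit of 3 counts. Simulated precursor-like counts for 7406 genes gave intervals that held the ratio put in for 96.3% of them. The counts were Poisson draws of group totals, so coverage near 95% was built in. Unevenness between cells, which is large for these genes, was not simulated. The rule called 5.56% of 7210 genes simulated without a difference, 45.5% of 66 genes simulated at 2-fold and 100% of 64 at 4-fold. The bleeding group's small total therefore limits low genes.

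Named genes were the 7 members, the 4 genes with most UMIs of each pathway list and those past 2-fold with an interval excluding 1, and the 10 genes most like the members by correlation. The members and lists were chosen with earlier results of these data known. Alternatives for filters, doublets, clustering, scaling and depth are given at the end.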

Additional observations from a re-analysis of the deposited data

Results flagged for a closer look

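UMIs of the 7 genes were present in barcodes that passed all filters and were left out as doublets, which the comparisons with doublets removed do not use. These barcodes held 1912 UMIs in PHZ and 5614 UMIs in bleeding, both above the limit of 3 counts that a 0 allows. No group had 4 or more libraries, so no library was compared with others of its treatment.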

How the results depend on the processing

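Each choice was changed alone. Of the summary values in precursor-like and other cell groups, 110 stayed within their bounds and 48 moved. Of the ratios of single genes in precursor-like cells, 67 stayed, 48 moved and 1 turned its direction. With no doublet removal the ratios of the monocyte-like sum (0.437) and of Prtn3 there (0.492) turned to 1.07 and 1.17, and in precursor-like cells those of Irf8 (0.185), Myb (0.875) and Camp (1.09) to 5.26, 1.64 and 0.841. Cebpe there turned to 0.925 (1.10). Bleeding values moved more often than PHZ values. In precursor-like cells the bleeding sum of 3287 UMIs was 619 with at least 200 genes per barcode, 1553 with at least 500 genes, 5015 with at most 5% mitochondrial UMIs, 1789 with at most 20% and 4944 with no doublet removal. Bleeding precursor-like cells (14) numbered 6, 24 and 9 with at least 200 genes, at most 5% and at most 20% mitochondrial UMIs. The neutrophil-like share of bleeding UMIs (38.0%) was 10.6% and 20.6% with at least 200 and 500 genes, 47.3% with at least 2000 UMIs, 55.2% and 22.5% with at most 5% and 20% mitochondrial UMIs and 55.2% with no doublet removal. The PHZ share (89.3%) was 90.7% with at least 500 genes, 79.4% with at most 5% mitochondrial UMIs and 86.3% with no doublet removal.

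The log2 ratio of the sum (0.88) was 1.12 and 0.69 with at least 500 and 2000 UMIs, 2.004 and 1.46 with at least 200 and 500 genes, 0.82 and 0.996 with at most 5% and 20% mitochondrial UMIs, 0.57 with no doublet removal, 0.99 by the median of ratios, 0.62 when all cells were given equal weight and 2.13 without the 3 highest cells. Fcnb (-0.29) turned to 0.29 without these 3 cells, which are taken from 47 in PHZ and from only 14 in bleeding. Ctsg gave no ratio without the 3 highest cells or with at least 200 genes, since bleeding was then at 0. Genes past 2-fold (739) numbered 1776 with at least 200 genes, 1299 with at most 20% mitochondrial UMIs and 5043 with genes of 1 UMI or more. Early progenitor-like cells held 82, 83, 212 and 45 UMIs in PHZ (27) with at least 500 genes, at most 5% mitochondrial UMIs, no doublet removal and clustering resolution 2. In bleeding (7) they held 13, 815, 2071 and 2654 with at least 500 and 2000 UMIs, at most 5% mitochondrial UMIs and no doublet removal. Monocyte-like cells held 2746 UMIs in PHZ (89) with no doublet removal, and in bleeding (80) 7 and 8 with at least 200 and 500 genes and 1324 with no doublet removal. Thinned to 2000 UMIs, the share with any of the genes was 100% in PHZ precursor-like and 63.4% in PHZ immature cells. With all UMIs it was 100% in PHZ and bleeding precursor-like cells, 95.7% in PHZ and 96.9% in bleeding immature cells. Sub-cluster resolutions 0.5 and 2 were added after seeing the data. The cause of these shifts was not tested. No paired analysis was possible because each treatment had 1 library.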
